A study of Mus musculus with 47 samples.

Results

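The 30 genes described here encode enzymes of cholesterol and fatty acid synthesis, with the sterol regulators Srebf1, Srebf2 and Insig1 and the sterol carrier Stard4. They were chosen by symbol, as members of these pathways, among 45650 gene symbols in the transcript tables, and all 30 were found. By role they fell into a mevalonate arm of 8 genes, an arm from squalene to cholesterol of 10 genes, 4 regulators and sterol transport genes, and a fatty acid arm of 8 genes. All 30 passed the filter on low counts in every comparison.

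Polyadenylated RNA was sequenced from mouse C2C12, an established skeletal muscle myoblast line that fuses into myotubes when serum is withdrawn. The iMyoD1 line kept its endogenous MyoD1 and carried a doxycycline (dox)-inducible Halo-MyoD1 transgene, and was sampled with dox or vehicle at 0 h in growth medium (24 h of treatment) and at 24, 48 and 120 h of serum starvation (treated throughout). At 120 h the whole culture and 2 fractions split on a 40 µm strainer, labelled myotube-enriched and myoblast-enriched, were sequenced. The iCdh23 and iMcam lines, with inducible Cdh23 or Mcam, were sampled at 48 h with dox or vehicle. Each of the 16 groups held 3 libraries except the dox-treated myoblast-enriched fraction, which held 2. The inducible cassettes were driven by a TRE3G promoter, iMyoD1 was a polyclonal population, and only a portion of cells responded in iMyoD1. Replicates were labelled biological, and the paper calls those of iMyoD1 at 24 h independent, but whether they were separate cultures is not spelled out. The p-values therefore measure the spread between these libraries, part of which may be technical.

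Cholesterol synthesis starts from acetyl-CoA, passes through mevalonate and isoprenoid units to squalene, and ends in a series of ring modifications in the endoplasmic reticulum. Fatty acid synthesis draws on the same cytosolic acetyl-CoA and continues with elongation and desaturation. Genes of both routes are textbook targets of the sterol regulatory element-binding proteins (SREBPs), which INSIG proteins hold in the endoplasmic reticulum when sterols are plentiful, and fusing myoblasts rebuild much of their membrane.

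The library totals ranged from 15066338 to 50950674 estimated counts (median 22837926), and the 30 genes together took between 0.301% and 0.76% of a library. Because all libraries are bulk samples, fewer cells expressing a gene and less RNA per cell cannot be told apart. Levels are given as CPM, the count of a gene scaled to the same library total, and a difference was called at an edgeR adjusted p under 0.05. The induced genes gave an uneven check of the labels. Myod1 was not called higher in the dox-labelled iMyoD1 libraries at any time, with means of 306 CPM with dox and 388 CPM without at 48 h (log2 fold change -0.36, edgeR adjusted p 0.00045) and of 92.0 and 280 CPM in the whole culture at 120 h (-1.62, adjusted p 1.3e-05). Cdh23 in iCdh23 had means of 486 and 389 CPM (0.32, adjusted p 0.1). Mcam in iMcam was higher with dox, at 71.3 against 18.1 CPM (2.02, adjusted p 0.00012). Mcam was higher with dox in iMyoD1 at 0, 24 and 48 h (24.0 against 12.6 CPM at 48 h), in the whole culture (33.6 against 1.87 CPM) and myoblast-enriched fraction at 120 h, and in iCdh23 (49.1 against 6.28 CPM), and Cdh23 was higher in iMyoD1 at 0, 24 and 48 h (19.6 against 9.36 CPM at 48 h) and in iMcam (51.2 against 7.73 CPM). Myog, a myogenic factor of differentiating cells, was lower with dox at 48 h (601 against 1679 CPM) and in the whole culture at 120 h (390 against 2320 CPM). Libraries are named by their labels. The induced gene was called higher with dox in its own line in iMcam only. Because Mcam was also higher with dox in iMyoD1 and iCdh23, its rise in iMcam does not single out the cassette. Without dox at 48 h, Cdh23 already stood at 389 CPM in iCdh23, against 7.73 CPM in iMcam and 9.36 CPM in iMyoD1. Between untreated iCdh23 and iMcam this was called (log2 fold change 5.65), so the untreated iCdh23 libraries were not low in Cdh23. Whether reads of the transgenes were counted for Myod1 and Cdh23 was not tested, and an exchange of labels would turn the sign of each dox difference. Defining adipocyte markers (Adipoq, Plin1, Fabp4, Cidec and Lep) were under 1 CPM in every library, while Pparg and Cebpa, the other 2 genes of that list, were expressed and brought its sum to between 12.8 and 78.4 CPM. With dox at 48 h Pparg was lower in all 3 lines, and Cebpa was higher in iMyoD1, lower in iCdh23 and not called in iMcam. Their part in the results was not tested. Myotube markers summed to between 1.02 and 4.99 CPM at 0 h and to between 12611 and 13954 CPM in untreated iMyoD1 at 48 h.

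Promoter sequence (250 bases before to 50 after a start) was found for 23 of the 30 genes in the set of RefSeq promoters used here, build GRCm38.p6, and covered 28 starts. Fdps, Fdft1, Sqle, Stard4, Scd1, Scd2 and Fads1 had no entry in that set. Printed here are 150 bases before the outermost annotated start of the 3 genes that differed most with dox at 48 h in iMyoD1 (Hmgcs1, Insig1 and Cyp51) and of Acly, which was not called there and was higher in the other 2 lines. Hmgcs1 lies on chr13:119690201-119690350 (plus strand), Insig1 on chr5:28071213-28071362 (plus), Cyp51 on chr5:4104747-4104896 (minus) and Acly on chr11:100528001-100528150 (minus), all upstream of the first exon. Capitals mark matches, on either strand, to the sterol regulatory element core TCACNCCAC, the NF-Y box CCAAT, the Sp1 box GGGCGG or the E-box CAGCTG, the kind of site that MyoD1 binds. The motif counts that follow the sequences are over the whole 300-base windows, so they include NF-Y boxes outside the printed stretch. Relative to the start of the RefSeq window these lie at -216 to -212 for Insig1, at -29 to -25 for Cyp51, at 37 to 41 for Acly, and at -237 to -233, -176 to -172 and 10 to 14 for Hmgcs1. The printed stretches run from -199 to -50 for Insig1 and Cyp51 and from -150 to -1 for Hmgcs1 and Acly.
Hmgcs1: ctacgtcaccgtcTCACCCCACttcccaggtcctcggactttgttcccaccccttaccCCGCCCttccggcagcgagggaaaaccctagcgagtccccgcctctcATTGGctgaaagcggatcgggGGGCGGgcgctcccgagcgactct
Insig1: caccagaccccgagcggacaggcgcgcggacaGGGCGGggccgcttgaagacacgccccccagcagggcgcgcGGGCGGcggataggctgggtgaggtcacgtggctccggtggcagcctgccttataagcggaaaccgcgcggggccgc
Cyp51: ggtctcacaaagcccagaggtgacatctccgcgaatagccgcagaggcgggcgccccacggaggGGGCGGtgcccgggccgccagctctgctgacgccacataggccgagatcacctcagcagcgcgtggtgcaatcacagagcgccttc
Acly: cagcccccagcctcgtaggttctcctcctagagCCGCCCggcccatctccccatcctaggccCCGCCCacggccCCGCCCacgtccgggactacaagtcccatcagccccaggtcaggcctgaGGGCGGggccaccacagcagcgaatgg
The sterol element core was matched in 1 of the 28 promoters, that of Hmgcs1, at 137 to 129 bases before the start, against 1.24% of 32851 mouse promoters. Only exact matches to TCACNCCAC were sought, so sterol elements with other letters were not counted or marked, and a promoter without a match may hold one. CCAAT was present in 20 of the 28 (71.4%) against 37.41% of all, and GGGCGG in 21 (75.0%) against 35.66%. CAGCTG was present in 3 (Idi1, Msmo1 and Dhcr7; 10.7%) against 16.3% of all. No match shared bases with a match to another motif, and in Idi1 the E-box lay directly before an NF-Y box. Acaca and Elovl6 held none of the 4 motifs in these windows.

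**Figure D1:**
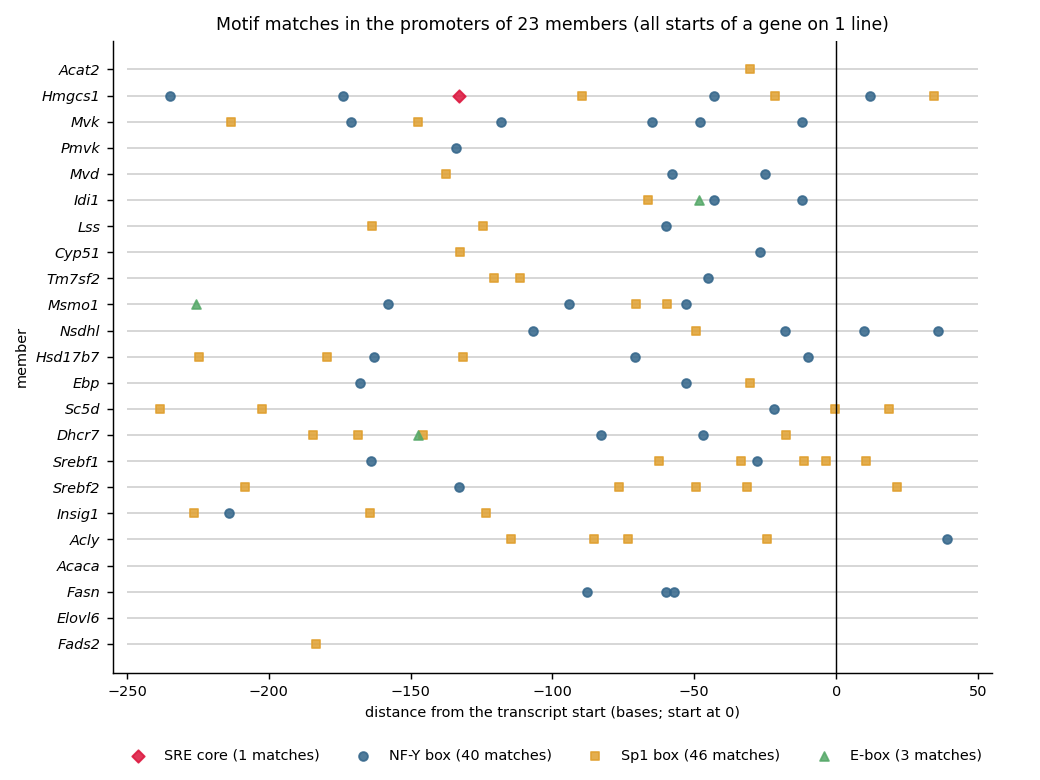
Position of each motif match (x axis, bases from the transcript start, which is at 0) in the promoters of the 23 genes with an entry in the promoter set used (y axis, all starts of a gene on 1 line). Symbols stand for the 4 motifs. NF-Y matches (40 in all) lie mainly before the start, 36 of them, and the single sterol element core lies in Hmgcs1.

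Levels differed widely between genes. Per transcript length (reads per base of transcript, scaled to the same total in each library), Scd2, a stearoyl-CoA desaturase, was highest with a median of 504 over the 47 libraries, followed by Fdps with 370 and Hmgcs1 with 162. Hsd17b7 and Stard4 were lowest with medians of 18.4 and 15.9. Scd2 alone made up 16.7% to 33.2% of the reads of the 30 genes. On the CPM scale the widest ranges between group means were those of Idi1 (11.8-fold), Insig1 (11.1-fold), Fdps (10.4-fold) and Nsdhl (9.85-fold), each of which was lowest in dox-treated iCdh23. Fads1 and Srebf2 ranged least, 2.12-fold and 2.22-fold.

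**Figure D2:**
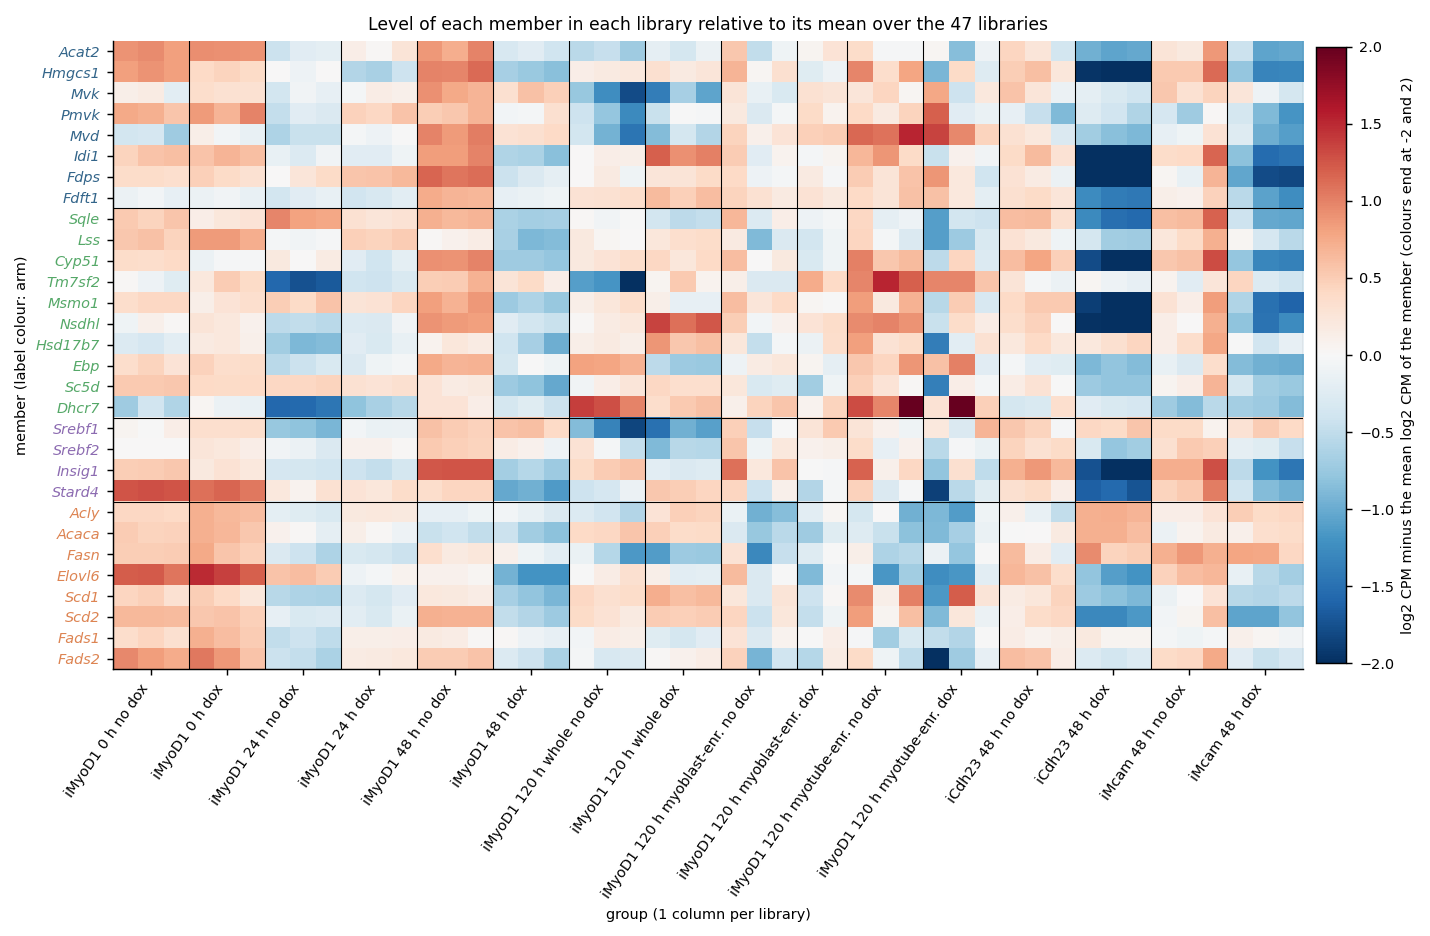
Level of each of the 30 genes (rows, label colours for the 4 arms) in each of the 47 libraries (columns, by group), as log2 CPM minus the mean log2 CPM of that gene; red is above and blue below its own mean, and colours end at -2 and 2. The 3 dox-treated iCdh23 libraries are the bluest for Hmgcs1, Idi1, Fdps, Cyp51, Msmo1, Nsdhl and Insig1 and are red for Acly and Acaca.

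The time course without dox in iMyoD1 asked how these genes move during normal differentiation. From 0 to 24 h of serum starvation 22 of the 30 genes fell and 1 rose, with a median log2 fold change of -0.64, where 37.0% of 13632 genes tested fell and 37.3% rose (median 0.014). All 8 genes of the fatty acid arm fell. Their share of a library, with the other 22 genes, went from 0.683% to 0.697% at 0 h to 0.398% to 0.424% at 24 h. The decrease was largest for Tm7sf2, which encodes a sterol C14 reductase, from 13.4, 12.3 and 11.1 CPM to 4.43, 3.94 and 4.12 CPM (log2 fold change -1.53 ± 0.12 SE, adjusted p 7.6e-08). Fads2, the delta-6 desaturase, went from 90.8, 83.2 and 77.7 CPM to 34.5, 33.5 and 30.2 CPM (-1.32 ± 0.07, adjusted p 1.3e-09). Acat2, the cytosolic thiolase at the entry of the mevalonate arm, fell by 1.13 on the log2 scale (SE 0.07, adjusted p 4.4e-09). In none of these did the groups overlap.

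Sqle, the squalene epoxidase, was the only gene of the 30 that rose, from 199, 188 and 202 CPM to 272, 241 and 237 CPM (0.38 ± 0.06, adjusted p 7.4e-05). The call was lost with all libraries in one fit, and 2 genes were higher without the second 24 h library. Mvk, Mvd, Fdps, Fdft1, Msmo1, Sc5d and Srebf2 were not called. Over the same interval all 6 proliferation markers fell (summed 2429 to 2465 CPM at 0 h, 826 to 859 CPM at 24 h) and all 8 ATF4 stress genes rose (883 to 915 CPM, then 3667 to 3776 CPM). All 5 myotube markers tested rose, but the sum of that list was still only 11.6 to 12.9 CPM at 24 h. Of 4 myoblast markers 3 fell and 1 rose. The part of these lists in the changes of the sterol and fatty acid genes was not tested.

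Between 24 and 48 h without dox, 25 of the 30 genes rose and 4 fell (median 0.93), against 38.4% and 38.4% of 14017 genes tested (median -0.021). Every gene of the mevalonate arm rose. The 24 h and 48 h libraries came in different deposited tables, and the labels give a batch for the 48 h libraries and none for the 24 h libraries, so time cannot be told apart from table and batch here. Tm7sf2 reached 18.6, 18.7 and 21.2 CPM (2.24 ± 0.11, adjusted p 8e-10). Dhcr7, the last reductase of the pathway to cholesterol, went from 17.5, 17.7 and 19.2 CPM to 62.7, 63.2 and 57.2 CPM (1.75 ± 0.07, adjusted p 6.6e-11). Insig1, which retains the SREBP complex, went from 55.6, 54.7 and 53.2 CPM to 166, 167 and 167 CPM (1.62 ± 0.06, adjusted p 1.2e-11). The libraries of the 2 times did not overlap in any of these 3 genes.

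The 4 genes that fell between 24 and 48 h included the elongase Elovl6 (-0.49 ± 0.06, adjusted p 4.1e-06) and Acaca, the acetyl-CoA carboxylase that commits acetyl-CoA to fatty acids (-0.42 ± 0.07, adjusted p 0.00015). Sc5d, a sterol desaturase, fell by 0.21 (SE 0.06, adjusted p 0.0056), but its most abundant transcript alone gave 0.16. The fourth was Sqle, and Acly was not called. With all libraries in one fit 2 genes fell, since Sc5d and Sqle were no longer called. Between the same libraries myotube markers rose in 8 of 8, proliferation markers in 4 of 6 and myoblast markers in 3 of 4, and ATF4 stress genes fell in 8 of 8. The part of these lists was not tested.

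From 48 to 120 h without dox, in libraries of 1 table, 21 genes fell and 3 rose (median -0.65), against 34.1% and 33.0% of 13785 genes tested (median -0.028). All 8 genes of the mevalonate arm and all 4 regulators and transport genes were among those that fell. Mvk, mevalonate kinase, went from 54.6, 49.0 and 46.5 CPM to 17.1, 12.3 and 8.38 CPM (-1.97 ± 0.21, adjusted p 4.3e-05). Tm7sf2 returned to 6.11, 5.84 and 3.05 CPM (-1.95 ± 0.23, adjusted p 7e-05). Srebf1, the SREBP that mainly serves fatty acid genes, went from 228, 216 and 208 CPM to 82.9, 60.2 and 42.4 CPM (-1.80 ± 0.20, adjusted p 4.8e-05). In each of these genes the third 120 h library was the lowest, and no value overlapped between the times.

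Dhcr7, Acaca and Scd1 rose between 48 and 120 h. Dhcr7 reached 136, 127 and 104 CPM (1.02 ± 0.11, adjusted p 3.9e-05), and Acaca went from 87.8, 91.0 and 84.9 CPM to 158, 160 and 176 CPM (0.93 ± 0.08, adjusted p 1.4e-05). In the untreated myotube- and myoblast-enriched fractions at 120 h, Acaca had means of 85.2 and 83.5 CPM, near its 48 h level. Those of Dhcr7 were 158 and 68.0 CPM. The change of Scd1, a second stearoyl-CoA desaturase, was small (0.20 ± 0.07, adjusted p 0.04), and its call was lost without the second 120 h library, without any single 48 h library, without the filter, with the replicate block and with all libraries in one fit. Lss, Hsd17b7, Ebp, Sc5d, Elovl6 and Fads1 were not called. All 6 proliferation markers and 3 of 4 myoblast markers fell over this interval, 7 of the 8 ATF4 stress genes rose, and of 8 myotube markers 5 rose and 3 fell. The part of these lists was not tested. The 3 intervals share libraries, so the size of one is not independent of the next.

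**Figure D3:**
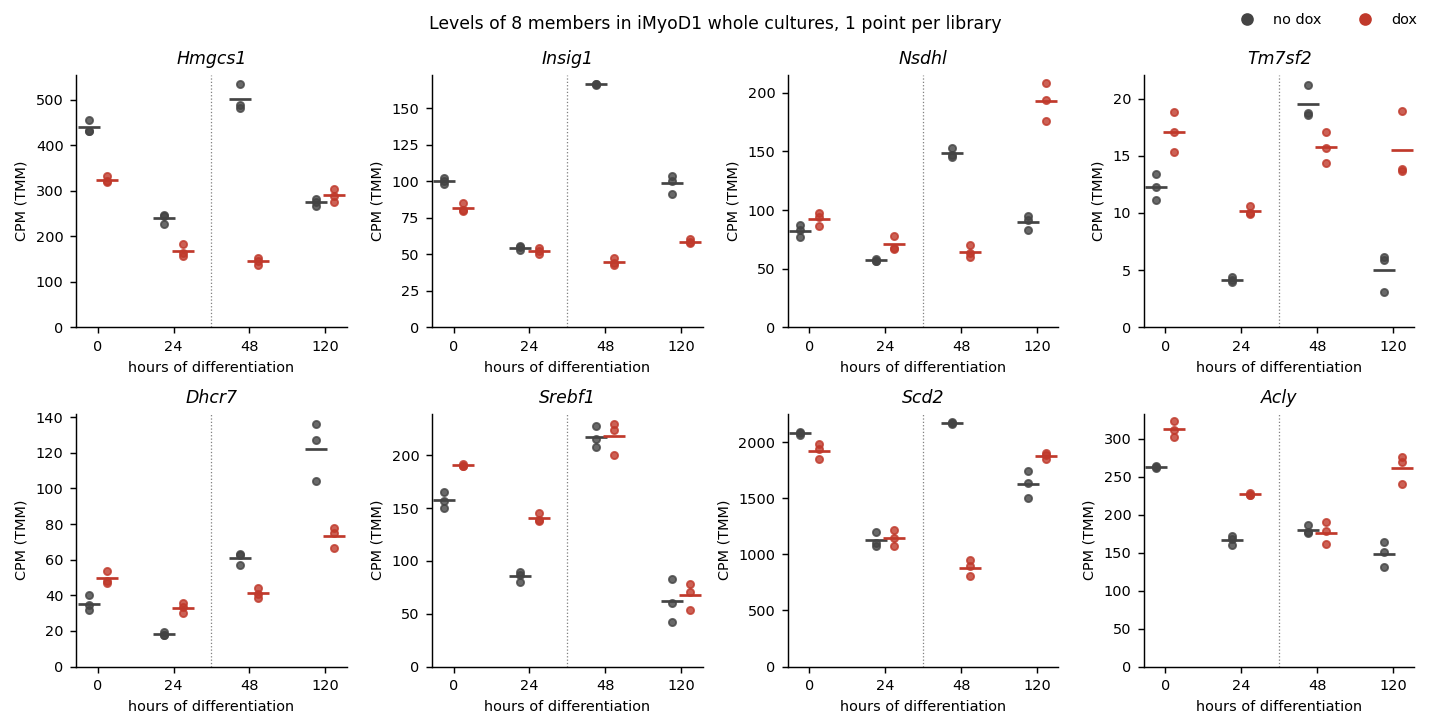
CPM (y axis, linear from 0) of 8 of the 30 genes in whole cultures of iMyoD1 at 0, 24, 48 and 120 h (x axis, not to scale), 1 point per library, with dashes at the means of 3 libraries, without dox in grey and with dox in red; the dotted line separates the 2 deposited tables. For Hmgcs1, Insig1, Nsdhl and Scd2 the dox libraries lie below the untreated ones at 48 h, and for Tm7sf2 they lie above at 24 and 120 h.

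Dox in growth medium (0 h) was compared to ask what induction does before differentiation. Of the 30 genes, 13 were higher and 5 lower (median 0.10), against 19.1% and 18.7% of 13550 genes tested (median 0.00). The differences were small, from -0.43 to 0.50, and with the most abundant transcript of each gene 7 were higher. The lower genes were Hmgcs1, Cyp51, Sqle, Insig1 and Stard4. Hmgcs1, the synthase that makes HMG-CoA, stood at 321, 333 and 319 CPM with dox and at 431, 455 and 431 CPM without (-0.43 ± 0.05, adjusted p 1.8e-05). Cyp51, the lanosterol demethylase, differed by -0.41 (SE 0.05, adjusted p 3e-05) and Sqle by -0.29 (SE 0.06, adjusted p 0.0011). The dox and untreated libraries of these 3 genes did not overlap.

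Dhcr7 was higher with dox at 0 h, at 53.5, 48.1 and 47.1 CPM against 31.7, 40.0 and 34.3 CPM (0.50 ± 0.09, adjusted p 0.0004). Tm7sf2 differed by 0.48 (SE 0.11, adjusted p 0.0025) and Hsd17b7, a sterol 3-ketoreductase, by 0.45 (SE 0.07, adjusted p 0.00012). Fitted with all 47 libraries together, none of the 18 calls at 0 h passed. ATF4 stress genes were lower in 7 of 8 and proliferation markers in 5 of 6, while 1 of 4 myoblast markers was higher and 1 lower. Of 3 myotube markers tested 2 were higher and 0 lower (list summed to 4.31 to 4.99 CPM against 1.02 to 2.15 CPM). The part of these lists was not tested.

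At 24 h dox-labelled libraries held 17 of the 30 genes at higher and 6 at lower levels (median 0.25), against 31.1% and 31.7% of 14078 genes tested (median -0.002). Fitted with all libraries together, 5 were higher and 3 lower. Tm7sf2 stood at 10, 9.88 and 10.6 CPM with dox and at 4.43, 3.94 and 4.12 CPM without (1.27 ± 0.10, adjusted p 4.3e-07). Dhcr7 was higher by 0.83 (SE 0.08, adjusted p 2.1e-06), at 29.8, 33.4 and 35.6 CPM against 17.5, 17.7 and 19.2 CPM. Pmvk, phosphomevalonate kinase, was higher by 0.78 (SE 0.07, adjusted p 1.8e-06). Groups were apart in all 3 genes.

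The genes lower with dox at 24 h were Hmgcs1, Sqle, Cyp51, Msmo1, Sc5d and Elovl6. Elovl6 stood at 57.6, 60 and 64.7 CPM against 91.9, 95.3 and 87.9 CPM (-0.62 ± 0.06, adjusted p 2.2e-06), whereas at 0 h it was called 0.20 higher with overlapping groups. Sqle differed by -0.60 (SE 0.06, adjusted p 2.9e-06) and Hmgcs1 by -0.54 (SE 0.06, adjusted p 1.3e-05). The dox effect itself differed between 24 and 0 h for 9 genes, 7 with a higher and 2 with a lower effect at 24 h, against 13.3% and 20.7% of 14448 genes. DESeq2 called 13 higher and 2 lower, and the fit with all libraries called 0 and 0. All 8 ATF4 stress genes were lower with dox at 24 h (summed 2335 to 2416 CPM against 3667 to 3776 CPM). Of 6 proliferation markers 4 were lower and 1 higher, of 4 myoblast markers 2 were lower and 2 higher, and of 7 myotube markers tested 1 was lower and 1 higher. The part of these lists was not tested.

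At 48 h most of the 30 genes were lower in dox-labelled iMyoD1 libraries. Of the 30 genes 27 were lower and 0 higher (median -0.94), against 28.7% and 27.9% of 13871 genes tested (median 0.011). DESeq2 also called 27 lower and 0 higher, and all 30 log2 fold changes by edgeR were below 0. The 30 genes took 0.337% to 0.391% of a library with dox and 0.648% to 0.678% without. The mevalonate arm (8 of 8 lower, median -1.02) and the arm from squalene to cholesterol (10 of 10, median -0.99) were called throughout. In the fatty acid arm 6 of 8 were lower (median -0.65).

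Insig1 showed the largest difference at 48 h. It stood at 43.7, 47.2 and 42.4 CPM with dox and at 166, 167 and 167 CPM without (-1.92 ± 0.06, adjusted p 1.3e-08). Hmgcs1 stood at 153, 146 and 137 CPM against 487, 481 and 535 CPM (-1.80 ± 0.07, adjusted p 3.3e-08). Cyp51 stood at 87.9, 87.7 and 83.9 CPM against 272, 267 and 287 CPM (-1.69 ± 0.06, adjusted p 2.2e-08). In each gene the 2 groups were far apart relative to the spread of their 3 libraries.

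Other genes of the sterol route were also lower by more than 1 on the log2 scale at 48 h. They were the isomerase Idi1, the prenyl synthase Fdps, Acat2, Sqle, the demethylation enzymes Msmo1 and Nsdhl, Sc5d, and the carrier Stard4, with log2 fold changes from -1.59 to -1.06. In the fatty acid arm Scd2, at 947, 893 and 806 CPM against 2184, 2172 and 2165 CPM, and Elovl6 passed the same size. Smaller decreases were those of Dhcr7, Tm7sf2, Mvk, Pmvk, the decarboxylase Mvd, Fads1, the fatty acid synthase Fasn and Srebf2, from -0.63 to -0.21. Fdft1, the squalene synthase, the cyclase Lss, the isomerase Ebp, Hsd17b7, Scd1 and Fads2 lay between, from -0.99 to -0.82. Reads of Fdft1 may be shared with Ctsb, whose exons overlap 18.3% of its exon bases on the opposite strand, and reads of Tm7sf2 with Vps51 (12.1%, same strand).

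Srebf1, Acly and Acaca were not called at 48 h in iMyoD1. Srebf1 stood at 224, 230 and 200 CPM with dox and at 228, 216 and 208 CPM without, so its groups overlapped. Acly, the ATP citrate lyase that supplies cytosolic acetyl-CoA to both routes, stood at 190, 178 and 161 CPM against 177, 176 and 186 CPM. Srebf2, the SREBP that mainly serves sterol genes, was lower, at 372, 357 and 314 CPM against 484, 471 and 458 CPM.

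The same libraries had lower sums of myotube markers (5056 to 5259 CPM with dox, 12611 to 13954 CPM without; 8 of 8 genes lower), of proliferation markers (416 to 443 CPM against 1157 to 1199 CPM; 6 of 6 lower) and of ATF4 stress genes (535 to 597 CPM against 1280 to 1520 CPM; 7 of 8 lower). Of the 4 myoblast markers 3 were lower and 1 higher (summed 1366 to 1467 CPM against 1910 to 2077 CPM). Their part in the lower sterol and fatty acid genes was not tested.

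In iCdh23 at 48 h dox-labelled libraries held 21 of the 30 genes at lower and 2 at higher levels (median -0.94), against 32.4% and 31.3% of 14227 genes tested (median -0.002). Idi1 stood at 32.3, 20.5 and 22.1 CPM with dox and at 187, 222 and 175 CPM without (-2.96 ± 0.20, adjusted p 1.9e-05). Insig1 stood at 20.8, 12.5 and 11.8 CPM against 114, 128 and 110 CPM (-2.96 ± 0.22, adjusted p 3e-05). Msmo1 stood at 31.5, 21.6 and 20.9 CPM against 152, 166 and 166 CPM (-2.71 ± 0.17, adjusted p 1.5e-05). The first dox library was the highest of its group in all 3 genes and still lay far below the untreated ones.

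Acly and Acaca were higher with dox in iCdh23. Acly stood at 325, 327 and 316 CPM against 211, 179 and 140 CPM (0.86 ± 0.15, adjusted p 0.0016), but its most abundant transcript alone gave 0.31 and was not called. Acaca stood at 195, 196 and 184 CPM against 119, 120 and 135 CPM (0.62 ± 0.09, adjusted p 0.0007). Pmvk, Tm7sf2, Hsd17b7, Dhcr7, Srebf1, Fasn and Fads1 were not called. Myotube markers summed to 37.0 to 126 CPM with dox against 5269 to 9226 CPM, and proliferation markers to 71.5 to 84.8 CPM against 803 to 1031 CPM. ATF4 stress genes were lower in 6 of 8 (218 to 229 CPM against 521 to 1974 CPM) and myoblast markers in 3 of 4 (310 to 353 CPM against 1371 to 1595 CPM). The part of these lists was not tested.

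In iMcam at 48 h, where the induced gene did rise, 22 of the 30 genes were lower with dox and 1 higher (median -0.84), against 24.8% and 24.2% of 13731 genes tested (median 0.020). Cyp51 stood at 83.8, 58.3 and 56.6 CPM against 210, 216 and 354 CPM (-1.93 ± 0.24, adjusted p 0.00084). Insig1 stood at 48.6, 30.4 and 25.6 CPM against 116, 116 and 171 CPM (-1.91 ± 0.26, adjusted p 0.0012). Idi1 differed by -1.89 (SE 0.27, adjusted p 0.0015). The third untreated library was the highest for each of these genes, and no groups overlapped.

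Acly was the only gene of the 30 that was higher in iMcam, at 278, 259 and 263 CPM against 217, 217 and 240 CPM (0.28 ± 0.08, adjusted p 0.026). This call did not hold across settings, since the most abundant Acly transcript, which held 45.4% of the gene's reads, gave -0.32, and the count of higher genes ran from 0 to 2 when single libraries were left out (2 without the third untreated library). Pairing same-numbered libraries, which deviated together in this line, also gave 2. Pmvk, Tm7sf2, Dhcr7, Srebf1, Acaca, Fasn and Fads1 were not called. Myotube markers (7 of 8 lower, summed 516 to 1635 CPM with dox against 3917 to 9659 CPM) and proliferation markers (6 of 6 lower, 113 to 169 CPM against 707 to 859 CPM) moved here too. ATF4 stress genes were lower in 4 of 8 and higher in 1 (257 to 308 CPM against 446 to 528 CPM), and myoblast markers were lower in 3 of 4 (419 to 628 CPM against 1072 to 1653 CPM). The part of these lists was not tested.

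The 3 dox comparisons at 48 h share no libraries. In all 3 lines 21 of the 30 genes (70.0%) were lower with dox, beside 2455 of the 13209 genes tested in all 3 (18.6%). The other 9 were Pmvk, Tm7sf2, Hsd17b7, Dhcr7, Srebf1, Acly, Acaca, Fasn and Fads1. None of the 30 was higher in one line and lower in another. Between iCdh23 and iMcam the dox effect differed for 1 gene in the upward direction, Acly (0.60 ± 0.17, adjusted p 0.049), and for 0 downward by edgeR, against 3.03% and 7.61% of 14552 genes, while DESeq2 called 2 and 5 and 12 had an unadjusted p under 0.05. The Acly call was lost when most single libraries were left out. Without the third untreated iMcam library 8 genes had a lower effect in iCdh23. The iMyoD1 effect was not tested against either line. Untreated iCdh23 and iMcam differed in 0 of the 30 genes by edgeR, against 0.182% higher and 0.226% lower of 13700 genes, and DESeq2 also called 0, with 3 at an unadjusted p under 0.05.

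**Figure D4:**
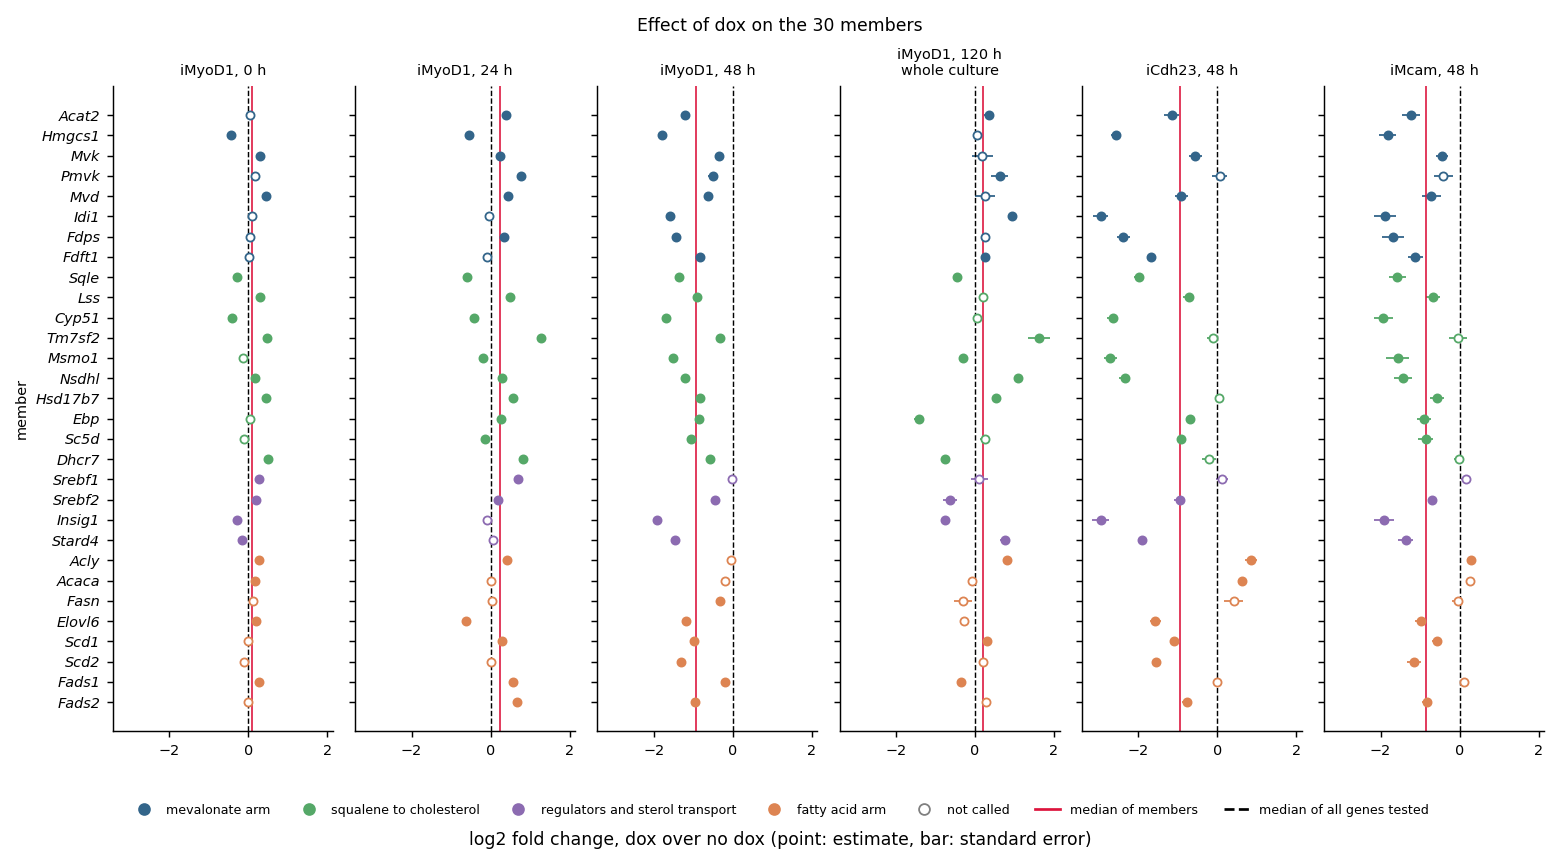
Log2 fold change of dox over no dox (x axis) for each of the 30 genes (y axis, coloured by arm) in 6 comparisons, as the edgeR estimate with its standard error; open points were not called at an adjusted p under 0.05, red lines are medians of the 30 genes and dashed lines medians of all genes tested. The medians are -0.94, -0.94 and -0.84 at 48 h in iMyoD1, iCdh23 and iMcam and 0.20 in the iMyoD1 whole culture at 120 h.

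At 120 h the dox-labelled whole cultures of iMyoD1 no longer had lower levels as a group. Of the 30 genes 10 were higher and 7 lower (median 0.20), against 21.4% and 23.7% of 13627 genes tested (median -0.001), and the higher count was 6 without the third dox library. The 30 genes took 0.565% to 0.581% of a library with dox and 0.429% to 0.472% without. Tm7sf2 stood at 13.7, 18.9 and 13.8 CPM against 6.11, 5.84 and 3.05 CPM (1.62 ± 0.27, adjusted p 0.0011). Nsdhl stood at 208, 176 and 194 CPM against 83.0, 91.9 and 94.8 CPM (1.09 ± 0.10, adjusted p 2.7e-05). Idi1 stood at 327, 269 and 289 CPM against 144, 158 and 156 CPM (0.94 ± 0.10, adjusted p 6.2e-05). These 3 genes had no overlap between groups.

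The 7 genes lower with dox at 120 h were Ebp, Insig1, Dhcr7, Srebf2, Sqle, Fads1 and Msmo1. Ebp, the sterol delta-8 isomerase, stood at 26.9, 23.4 and 23.1 CPM against 67.2, 66.5 and 62.8 CPM (-1.43 ± 0.11, adjusted p 9.5e-06). Insig1 stood at 60.3, 57.5 and 58.3 CPM against 91.6, 100 and 104 CPM (-0.76 ± 0.09, adjusted p 0.00015), and Dhcr7 differed by -0.75 (SE 0.12, adjusted p 0.00078). The share of the 30 genes that was lower lay near that of all genes.

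The dox effect at 120 h was higher than at 48 h for 22 genes and lower for 1 (median difference 1.15), against 16.8% and 17.2% of 14734 genes tested (median -0.007). The largest differences were those of Idi1 (2.53 ± 0.13, adjusted p 2.8e-08), Nsdhl (2.31 ± 0.12, adjusted p 3.1e-08) and Stard4 (2.21 ± 0.13, adjusted p 4.8e-08). In the fractions at 120 h none of these genes was called with dox. Their means there were lower with dox, except that of Nsdhl in the myoblast-enriched fraction (103 against 93.6 CPM). Ebp was the gene with the lower effect (-0.56 ± 0.14, adjusted p 0.0062), a call that was lost with all libraries in one fit. In the whole cultures at 120 h myotube markers were lower with dox in 5 of 8 and higher in 2 (summed 10277 to 12022 CPM against 15011 to 18161 CPM). There proliferation markers were higher with dox in 4 of 6 and lower in 1 (428 to 499 CPM against 273 to 298 CPM) and ATF4 stress genes lower in 8 of 8 (413 to 452 CPM against 2324 to 2584 CPM), and their part was not tested.

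The fractions at 120 h were compared to ask whether these genes differ between myotubes and unfused cells. Without dox 1 of the 30 genes was higher in the myotube-enriched fraction and 0 lower (median 0.33), against 0.578% and 0.0143% of 14023 genes tested (median -0.003). DESeq2 called 4 higher and 0 lower, 9 had an unadjusted p under 0.05, and 4 were higher and 1 lower when same-numbered libraries, which deviated together, were paired. Tm7sf2 stood at 26.0, 37.8 and 30 CPM in the myotube-enriched and at 14.3, 10.8 and 10.8 CPM in the myoblast-enriched libraries (1.41 ± 0.21, adjusted p 0.04). The call was lost in 5 of the 6 fits without one of these libraries. Myotube markers summed to 13799 to 21616 CPM in the myotube-enriched and 6066 to 9243 CPM in the myoblast-enriched libraries, so both fractions held them.

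With dox 0 of the 30 genes were called in the myoblast-enriched fraction (median -0.03), against 1.82% higher and 2.52% lower of 14249 genes tested. There 5 genes had an unadjusted p under 0.05 and DESeq2 called 1 higher and 0 lower. With same-numbered libraries as a block 9 were higher and 1 lower, in a comparison with only 2 such pairs, whose deviations correlated at 0.3 and 0.432. In the myotube-enriched fraction 0 were called (median -0.33), against 0.0% higher and 0.0% lower of 14113 genes, with 5 at an unadjusted p under 0.05 and 0 by DESeq2. The dox effect differed between fractions for 0 genes, against 0.0% higher and 0.0% lower of 15008 genes, with 2 at an unadjusted p under 0.05 and 0 by DESeq2. The spread was wide, with Scd1 at 161, 826 and 428 CPM, Dhcr7 at 63.5, 269 and 72.9 CPM and Fads2 at 7.87, 28.5 and 41.7 CPM in the 3 dox-treated myotube-enriched libraries. Standard errors there ran from 0.27 to 0.58, against 0.06 to 0.12 at 48 h, so smaller differences were not detectable.

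**Figure D5:**
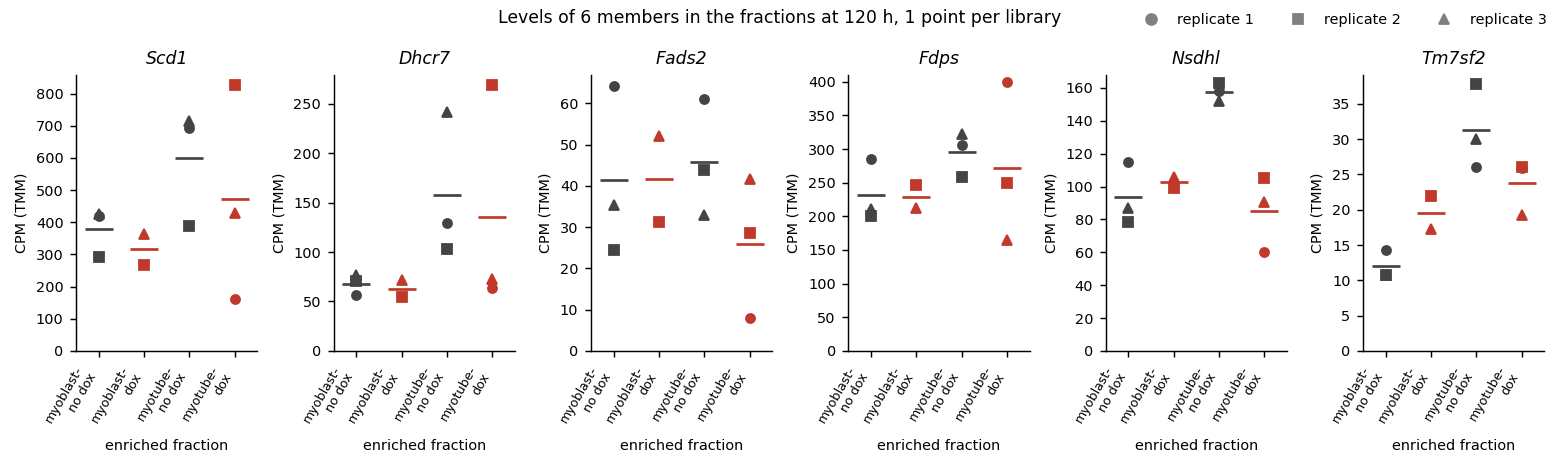
CPM (y axis, linear from 0) of 6 of the 30 genes in the fractions of iMyoD1 at 120 h (x axis, myoblast- or myotube-enriched, without dox in grey and with dox in red), 1 point per library with the symbol giving the replicate number and a dash at the mean; the dox-treated myoblast-enriched group has 2 libraries. Dox-treated myotube-enriched libraries spread from 161 to 826 CPM for Scd1, and Tm7sf2 is apart between the untreated fractions.

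Over the 16 group means some genes followed each other closely, which is given as a description because groups share lines and deposited tables. Pearson's r of log2 levels was 0.97 between Hmgcs1 and Cyp51, 0.96 between Hmgcs1 and Insig1, and 0.95 between Hmgcs1 and Scd2 and between Nsdhl and Fdft1. Scd2 had the highest median r with the other 29 genes (0.68). Acly and Acaca were most like each other (0.76) and had median r of -0.20 and -0.21 with the others. Srebf1 was most like Mvk (0.86) and then Fasn (0.70), with a median r of -0.14.

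Other lipid genes were taken from lists of the same pathways. Among 11 other sterol synthesis and SREBP pathway genes, 3 were higher and 5 lower with dox at 48 h in iMyoD1 (median -0.20), 2 and 3 in iCdh23 (median 0.03) and 3 and 5 in iMcam (median 0.16). Of all genes tested 27.9% were higher and 28.7% lower in iMyoD1, 31.3% and 32.4% in iCdh23, and 24.2% and 24.8% in iMcam, so several of these counts lay near the background. Tmem97, a sterol-regulated membrane protein, was the lowest in iCdh23 (-2.52) and iMcam (-1.94).

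Of 14 genes of cholesterol uptake, storage and export 9 were higher and 2 lower with dox at 48 h in iMyoD1 (median 0.50), 9 and 3 in iCdh23 (median 0.93) and 7 and 2 in iMcam (median 0.54), beside the same shares of all genes. Abca1, the cholesterol efflux pump, had the largest increase in each line, at 6.81, 5.26 and 4.13 CPM against 0.653, 0.428 and 0.357 CPM in iMyoD1 (3.51), with 3.71 in iCdh23 and 3.53 in iMcam. In iCdh23 the largest decrease was that of Vldlr (-3.58), which takes up lipoproteins. In the whole culture at 120 h 4 were higher and 5 lower (median 0.12), against 21.4% and 23.7% of all genes, with Abca1 again highest (3.35) and Vldlr lowest (-3.99).

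Of 16 other fatty acid and glycerolipid synthesis genes, 14 were tested at 48 h in iMyoD1, with 2 higher and 5 lower (median -0.16), against 27.9% and 28.7% of all genes. In iCdh23 6 of 15 were higher and 6 lower (median 0.09), against 31.3% and 32.4% of all genes. In iMcam 6 of 14 were higher and 4 lower, against 24.2% and 24.8%, with 7 log2 fold changes below 0 and 7 above. In iMyoD1 Dgat2, which makes triglycerides, was highest (1.44) and Acsl3, an acyl-CoA synthetase, lowest (-1.01). Of 12 genes of fatty acid uptake and oxidation 11 were tested in iMyoD1, with 4 higher and 1 lower (median 0.20), against 27.9% and 28.7% of all genes. In iCdh23 4 of 11 were higher and 2 lower (median 0.20), against 31.3% and 32.4% of all genes. In iMcam 4 of 10 were higher and 1 lower (median 0.28), against 24.2% and 24.8%. The largest called changes in iMyoD1 were those of Acadvl (0.61) and Acadl (-0.67), which encode acyl-CoA dehydrogenases.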

How the data were processed

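Polyadenylated RNA from 47 libraries in 16 groups was sequenced by the authors, who quantified transcripts with Salmon in the nf-core/rnaseq pipeline against mm10; the annotation release is not given in the sources used here. The deposited values are estimated counts for 109617 transcripts in 3 tables. The 0 h and 24 h libraries, the 48 h and 120 h whole cultures of iMyoD1, and the fractions with the other lines each had a table of their own. Transcripts were summed to 45706 genes through GENCODE vM21 (GRCm38), which held 98.72% of them, and the sums were rounded. Library totals ran from 15066338 to 50950674.

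Genes passing filterByExpr were tested with the edgeR 4.0.16 quasi-likelihood test after TMM scaling (R 4.3.3), using the libraries of each comparison, with Benjamini-Hochberg adjustment over all genes tested and calls at an adjusted p under 0.05. A difference between dox effects was an interaction term. Levels are CPM with TMM over all libraries. The procedure was tested on simulated data with changes larger than most of those reported here, which does not speak to small differences. Alternatives were DESeq2 1.42.0, RLE scaling, no filter, all libraries in one fit, the most abundant transcript of each gene, a replicate block and leaving out each library. Same-numbered libraries deviated together in every pair for dox in iMcam (correlations 0.227 to 0.419) and between the untreated fractions (0.117 to 0.413). No 2 replicates agreed within sampling noise (chi-square per gene 3.04 to 410).

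The 30 genes and all lists were chosen with earlier results of these data known. All 30 are named, and full statistics go to at most the 3 highest and 3 lowest called genes of a comparison. Of other lists, counts are given, with the largest called change for some lines and directions only. Myotube, proliferation, myoblast, adipocyte, osteoblast and ATF4 stress gene lists served as markers, and the osteoblast markers summed to at most 4.85 CPM. Some genes of these lists are not reported here by name.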

Additional observations from a re-analysis of the deposited data

Results flagged for a closer look

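The dox effect in iMyoD1 differed between 24 h and 0 h, by an interaction term in edgeR, for these genes with the highest and lowest differences. On the log2 scale the effect at 24 h was higher for Tm7sf2 (0.74, adjusted p 0.00086), Fads2 (0.62, adjusted p 0.0014) and Pmvk (0.55, adjusted p 0.0018). It was lower for Elovl6 (-0.86, adjusted p 5.3e-06) and Sqle (-0.36, adjusted p 0.0022). All 5 kept their direction and lost the call when all libraries were fitted together.

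Between 120 h (whole culture) and 48 h the effect was higher for Idi1 (2.53), Nsdhl (2.31) and Stard4 (2.21) and lower for Ebp (-0.56, adjusted p 0.0062). The Ebp call was lost when all libraries were fitted together. Stard4 stood at 17.8, 18.5 and 16.5 CPM with dox and at 45.9, 48.5 and 48.9 CPM without at 48 h. At 120 h in the whole culture it stood at 52.5, 50.6 and 48.5 CPM with dox. Without dox it stood there at 27.2, 28.6 and 33.2 CPM, so its order turned in the whole culture. In the myoblast-enriched fraction at 120 h its means were 29.7 CPM with and 38.3 CPM without dox. In the myotube-enriched fraction they were 21.8 and 38.4 CPM, and neither difference was called.

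The effect was higher in iCdh23 than in iMcam for Acly (0.60, adjusted p 0.049 by edgeR). This call was lost when most single libraries were left out. It was also lost with all libraries in one fit, with the most abundant transcript and without the filter.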

How the results depend on the processing

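Counts below are of the 30 genes. RLE scaling moved no count by over 1.5 times. With all libraries in one fit, 0 genes were higher and 0 lower with dox at 0 h, 5 and 3 at 24 h, and 6 higher at 120 h in the whole culture. That fit gave 1 higher in the myoblast-enriched and 1 lower in the myotube-enriched fraction with dox, 0 higher in iMcam, 0 higher from 0 to 24 h, 2 lower from 24 to 48 h, and 5 higher and 1 lower between untreated fractions. For dox effects it gave 0 higher and 0 lower at 24 against 0 h, 0 lower at 120 against 48 h, and 0 higher and 3 lower in iCdh23 against iMcam. The most abundant transcript gave 7 higher with dox at 0 h, 1 in iCdh23, 0 in iMcam, 0 between fractions and 0 for iCdh23 against iMcam, and turned Acly in iMcam to -0.32 and Sc5d from 24 to 48 h to 0.16. DESeq2 gave 1 higher in the myoblast-enriched fraction, 4 between fractions, 13 for 24 against 0 h, and 2 higher and 5 lower for iCdh23 against iMcam. Without a filter there were 1 higher and 1 lower in the myoblast-enriched fraction, 0 higher in iMcam, 3 between fractions, and 0 higher and 3 lower for iCdh23 against iMcam. The causes were not tested.

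With the replicate block 6 genes were higher at 120 h in the whole culture, 9 higher and 1 lower with dox in the myoblast-enriched fraction (only 2 pairs), 2 higher in iMcam, 4 higher and 1 lower between untreated fractions, 1 higher in untreated iCdh23 against iMcam, and 1 lower for their dox effects. The block moved no other count by over 1.5 times. In iMcam and the untreated fractions every one of 3 pairs deviated together, and in the dox comparison of the myoblast-enriched fraction both pairs did (correlations 0.3 and 0.432). In the other comparisons at least 1 pair correlated below 0.1.

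Leaving out single libraries gave 1 to 2 higher from 0 to 24 h (2 without the second 24 h library), 6 to 12 higher with dox at 120 h in the whole culture (6 without the third dox library), 0 to 1 higher and 0 to 1 lower in the myoblast-enriched fraction, 0 to 2 higher in iMcam, 0 to 2 higher between fractions, and 0 to 1 higher and 0 to 8 lower for iCdh23 against iMcam (8 without the third untreated iMcam library). The count lower with dox at 48 h stayed between 26 and 28 in iMyoD1, 20 and 21 in iCdh23, and 18 and 22 in iMcam. The lowest count of any of the 30 genes in a library was 64, and the effect of depth was not tested.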
